A study of Rattus norvegicus with 4 samples.

Results

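The proteasome is the barrel-shaped protease that degrades proteins marked with ubiquitin, and its subunits and regulators are described here across 4 footpad skin libraries from irradiated rats. The genes were chosen by symbol alone, as rows of the deposited gene tables beginning with Psm, a letter from a to g and a number. Of 18957 rows, 45 matched. Psmc3ip matched by name only, since it encodes a recombination partner of Psmc3, and its counts of 20, 19, 16 and 10 on days 0, 3, 6 and 9 are not used below. The remaining 44 rows were 8 Psma, 7 constitutive Psmb, 2 immune Psmb, 6 Psmc, 14 Psmd, 2 Psme, 1 Psmf and 4 Psmg genes. Psmb10, Psme2 and Psme3 are not analysed here under those symbols. Another 10 rows described as proteasome, 6 of them UniGene-type entries, have symbols outside the pattern. They are in none of the proteasome sums below.

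Sprague Dawley rats received 10 Gy on each of days 1, 2, 4 and 5, as a 9 MeV electron beam at 500 cGy/min, to imitate fractionated radiotherapy. Hindlimb footpad skin was collected on days 0, 3, 6 and 9, so that day 0 preceded all irradiation, day 3 followed 2 irradiations, and days 6 and 9 followed all 4. The sample descriptions disagree with this schedule in part: each later one names a single irradiation day, and that of the day 0 sample names day 1. Each day is 1 library of 21-base tags, and the labels give no animal, sex or pooling. No test between days was therefore possible, and every interval below covers counting error alone.

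The core of the proteasome is built from outer rings of alpha subunits (Psma genes) and inner rings of beta subunits (Psmb genes), of which Psmb5, Psmb6 and Psmb7 carry the active sites. Interferon induces Psmb8, Psmb9 and Psmb10, which take the places of these catalytic subunits in newly built cores and change which peptides are made for antigen presentation. The regulatory particle adds ATPases (Psmc genes) and subunits that bind, deubiquitinate and hold substrates (Psmd genes), while Psme genes encode alternative activators and Psmg genes encode assembly chaperones. In skin, ubiquitin-dependent degradation sets the levels of cell cycle, inflammatory and differentiation regulators.

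A tag is a short sequence next to a CATG site of a transcript, ideally the last such site before its 3' end, and each copy counts 1 transcript regardless of length. Of 39 proteasome genes with a mean of at least 10 counts, 26 had at least 90% of their copies in 1 tag, and in 30 the most abundant tag lay at the first site from the 3' end. The tags of the genes on which the results turn are given here because their ends mattered for the values. The last 2 bases are in capitals, and sites are counted from the 3' end of the transcript.
Psmb5, site 1: catgacaagtatacttcatCT
Psmb6, site 2: catgaccaaggatgaatgtCT
Psma1, site 9: catgaggatgcaggggcatAC
Psmf1, site 1: catgttgccgaaaaaaaaaAA
Psmf1, site 1 variant: catgttgccgataaaaaaaAA
Psmb1, site 1: catgcccacatacaagtatAT
Psmb1, site 3: catgaggctggtgaaagacGT
Psmb8, site 1: catgaagaaagacggttggGT
Psmc3, site 1: catggagggcatcctggagGT
Psmd4, site 1: catggacacatctgagccaGT
Psmb4, site 1: catgatcagtggctttgaaTG
Psmd2, site 1: catggggaacgggcggagcTG
Psmg1, site 1: catgacctgcctgtccaggGG
The last 6 of these, and the site 3 tag of Psmb1, end in GT, TG or GG. Both Psmf1 tags run into a stretch of A, and Psma1 was counted through a site far from its 3' end.

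The libraries were alike in depth, with 1952921 to 1982608 counts in genes, so that raw counts of a gene are given for each day. Ratios were taken between counts scaled by the TMM method of edgeR. The libraries differed more in composition. Skeletal muscle markers summed to 2507, 5223, 9.76 and 4764 scaled CPM (counts scaled to the TMM library size) on days 0, 3, 6 and 9, with 12 of 14 genes at 0 on day 6, Acta1, Ckm and Myh2 among them. Fibroblast markers summed to 11133, 52182, 40037 and 37394, keratinocyte markers to 18525, 14760, 25876 and 19190, and cell division genes to 122, 48.2, 207 and 109. The keratinocyte sum did not hold for each marker. Over 6 of these markers the median log2 ratio to day 0 was -0.88, -0.14 and -0.56 on days 3, 6 and 9. Fewer cells of a type and less RNA per cell cannot be told apart in whole skin, and the part of these shifts in the values below was not tested.

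As a whole, transcripts of these 44 genes stayed close to their day 0 level. All 44 genes together held 0.582% of gene counts on day 0, 0.536% on day 3, 0.534% on day 6 and 0.569% on day 9. The share was 0.922 times the day 0 value on day 3 (95% interval 0.897 to 0.946) and 0.918 times on day 6 (0.894 to 0.942). On day 9 it was 0.978 times (0.953 to 1.00). The median log2 ratio to day 0 over 39 proteasome genes was -0.14, -0.01 and 0.03 on days 3, 6 and 9. Over 9876 genes with the same minimum mean count it was -0.01, 0.03 and -0.00.

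A gene was called higher or lower when the libraries were at least 2-fold apart, the higher one had at least 50 counts and the exact interval excluded 1. On day 3, 0 of 34 proteasome genes that could be called passed this rule, while 16.4% of 5342 genes did. On day 6, 3 of 34 passed, against 20.6% of all genes that could be called: Psma1 was higher, and Psmb4 and Psmd2 were lower. On day 9, 3 of 34 passed, against 21.1%: Psma1 was higher, and Psmd2 and Psmf1 were lower. These 3 comparisons share the day 0 library and are not independent. Between day 3 and day 6, Psma1 was higher on day 6 and Psmb4, Psmb8 and Psmd2 were lower, 4 of 35 genes against 9.63% of all genes. Between day 6 and day 9 only Psmb4 passed, being higher on day 9, which is 1 of 34 against 14.4% of all genes. Except on day 9 against day 0, the genes called differ after the centring described below. The 5 genes named here are all that passed without it in any of the 5 comparisons. A further 30 genes had at least 50 counts in a library and passed in none, and 9 never reached 50 counts. With a 1.5-fold threshold in place of 2-fold, 9 of 34 passed on day 3 against 37.9% of all genes, 9 on day 6 against 40.4% and 10 on day 9 against 42.8%, and 7 passed between days 6 and 9 against 32.9%.

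**Figure D1:**
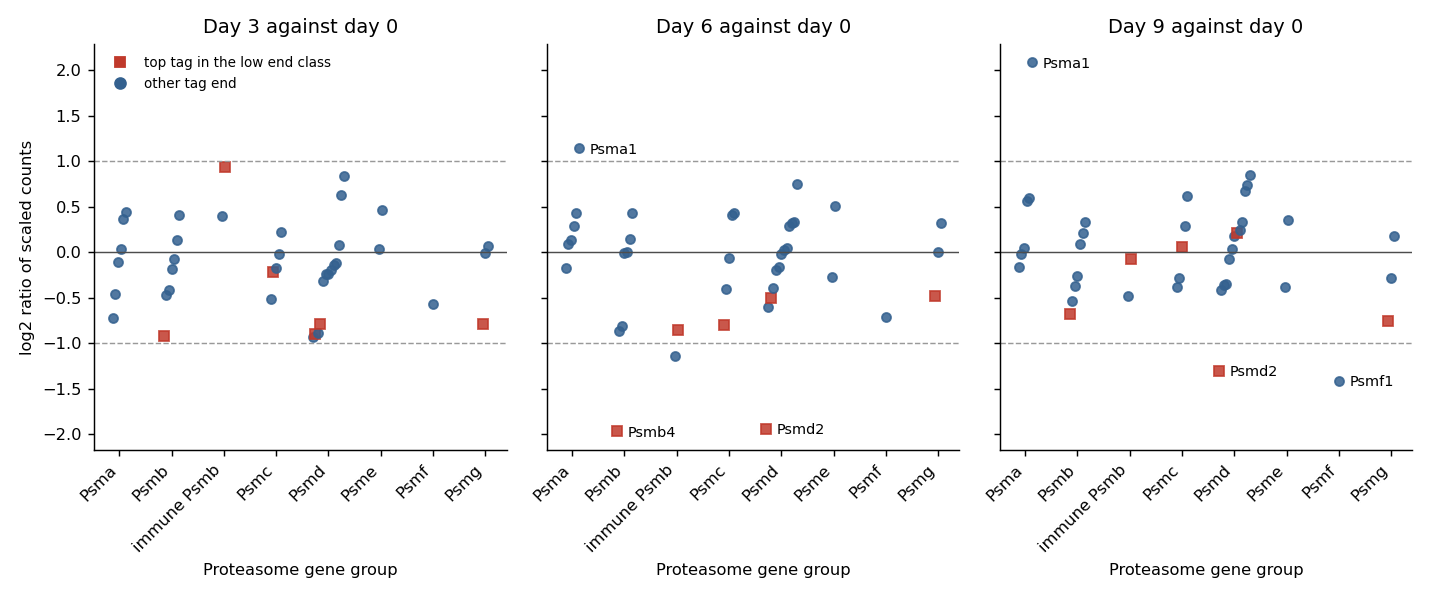
The log2 ratio of scaled counts to day 0 is plotted for 39 proteasome genes in 3 panels (days 3, 6 and 9), by gene group, with 1 point a gene; dashed lines mark 2-fold and called genes are named. Red squares are 6 genes whose most abundant tag ends in GG, GT or TG, all of which lie below 0 on day 6; most other genes lie between the dashed lines.

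Many of the smaller differences exceeded counting error. On day 6 the interval lay above 1 for 9 of 34 proteasome genes, below 1 for 12, and held 1 for 13. It thus excluded 1 for 61.8% of them, near the 58.7% of all genes that could be called. Of these genes, 73.5% lay within 1.5-fold of day 0 on day 6, compared with 59.3% of all genes that could be called. On days 3 and 9 the shares were 73.5% against 61.4% and 70.6% against 56.8%. Over 35 genes with at least 50 counts in a library, the highest library exceeded the lowest by a median of 1.51-fold, against 1.81-fold over 5736 genes. The range stayed under 2-fold for 27 of these 35 genes, or 77.1%, against 60.1% of all genes. The flattest was Psmd1, a scaffold subunit of the regulatory particle, at 244, 226, 234 and 221 counts on days 0, 3, 6 and 9, a 1.08-fold range. Psma1 had the widest range, at 6.98-fold. Of the 39 genes, 13, 4, 9 and 13 were highest on days 0, 3, 6 and 9, and 10, 13, 7 and 9 were lowest there. Over 9876 genes 30.3, 21.1, 23.8 and 24.7% were highest, and 29.5, 21.2, 24.2 and 25.1% lowest, on these days.

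The alpha subunits form the gate of the core, and their summed CPM of all gene counts were 1734, 1736, 1827 and 2013 on days 0, 3, 6 and 9. The day 9 share was 1.16 times that of day 0 (1.11 to 1.22), and the day 3 share was 1.00 times (0.955 to 1.05). Psma7 gave 1375, 1005, 1185 and 1349 counts, lowest on day 3 at 1.37-fold below day 0 (1.27 to 1.49). Psma2 had 749, 972, 888 and 1056 counts and was 1.48-fold above day 0 on day 9 (1.35 to 1.63). Through its most abundant tag, centred as described below, it was 1.07, 1.02 and 1.24-fold above on days 3, 6 and 9. The row named Psma3l, a gene like Psma3 whose tags may not be told apart from it, had 394, 538, 514 and 567 counts, 1.51-fold above day 0 on day 9 (1.33 to 1.72). Both genes had day 0 as their lowest library. Psma4 (532, 549, 565 and 501 counts) and Psma6 (349, 325, 362 and 297 counts) had intervals that held 1 on all 3 later days.

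Psma1, another alpha ring subunit, was the only proteasome gene called higher against day 0 before the centring described below. It had 38 counts on day 0, 23 on day 3, 82 on day 6 and 155 on day 9. The day 9 library was the highest and day 3 the lowest. The ratio to day 0 was 2.21-fold on day 6 (1.49 to 3.36) and 4.24-fold on day 9 (2.99 to 6.28), and day 6 was 3.63-fold above day 3 (2.30 to 6.14). After centring, Psma1 on day 6 was at 0.93 on the log2 scale against day 0, short of the 2-fold rule. None of its 4 tags lay at site 1, and which transcripts of Psma1 site 9 represents is not given in the sources used here. Psma5, with 0, 5, 0 and 4 counts, and Psma8, a form used mainly in the testis, with 0, 0, 0 and 2, were too low to compare.

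Counted over all tags, the constitutive beta subunits were lower in sum on each later day. They gave 1984, 1743, 1587 and 1716 CPM of gene counts on days 0, 3, 6 and 9, and the day 6 share was 0.800 times that of day 0 (0.763 to 0.839). On days 3 and 9 the share was 0.879 (0.839 to 0.920) and 0.865 times (0.826 to 0.906). The lower sum did not extend to every member. Psmb7, the trypsin-like catalytic subunit, had 807, 770, 778 and 819 counts, and Psmb3, a structural subunit, had 306, 337, 328 and 337; both kept intervals that held 1 on each later day. Psmb2, also structural, had 384, 511, 501 and 462 counts and was 1.34-fold above day 0 on day 6 (1.17 to 1.54).

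The other catalytic subunits differed from each other. Psmb5, the chymotrypsin-like subunit and the main target of bortezomib, had 749, 660, 731 and 594 counts, with day 9 at 1.20-fold below day 0 (1.08 to 1.34). Psmb6, the caspase-like subunit, had 532, 401, 283 and 350 counts. Its day 0 library was the highest and its day 6 library the lowest, 1.82-fold below day 0 (1.58 to 2.12), which is short of the 2-fold rule.

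Psmb4 and Psmb1 had the other large differences. Psmb4, a beta ring subunit without an active site, had 445 counts on day 0, 236 on day 3, 110 on day 6 and 265 on day 9. Day 6 was the lowest library, 3.92-fold below day 0 (3.18 to 4.89) and 2.07-fold below day 3 (1.65 to 2.62), and day 9 was 2.45-fold above day 6 (1.96 to 3.10). After the centring on tag ends described below, the differences between days 3 and 6 and between days 6 and 9 were -0.35 and 0.63 on the log2 scale, short of the 2-fold rule. Psmb1, another subunit without an active site, had 711, 516, 393 and 524 counts, 1.76-fold below day 0 on day 6 (1.55 to 1.99). Its 2 tags moved apart. The site 1 tag had 226, 320, 302 and 249 copies, lowest on day 0, and the site 3 tag had 483, 194, 89 and 267 copies, lowest on day 6. The site 3 tag was thus 68.1% of the pair on day 0 (64.6 to 71.5), 37.7% on day 3, 22.8% on day 6 (18.7 to 27.2) and 51.7% on day 9.

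**Figure D2:**
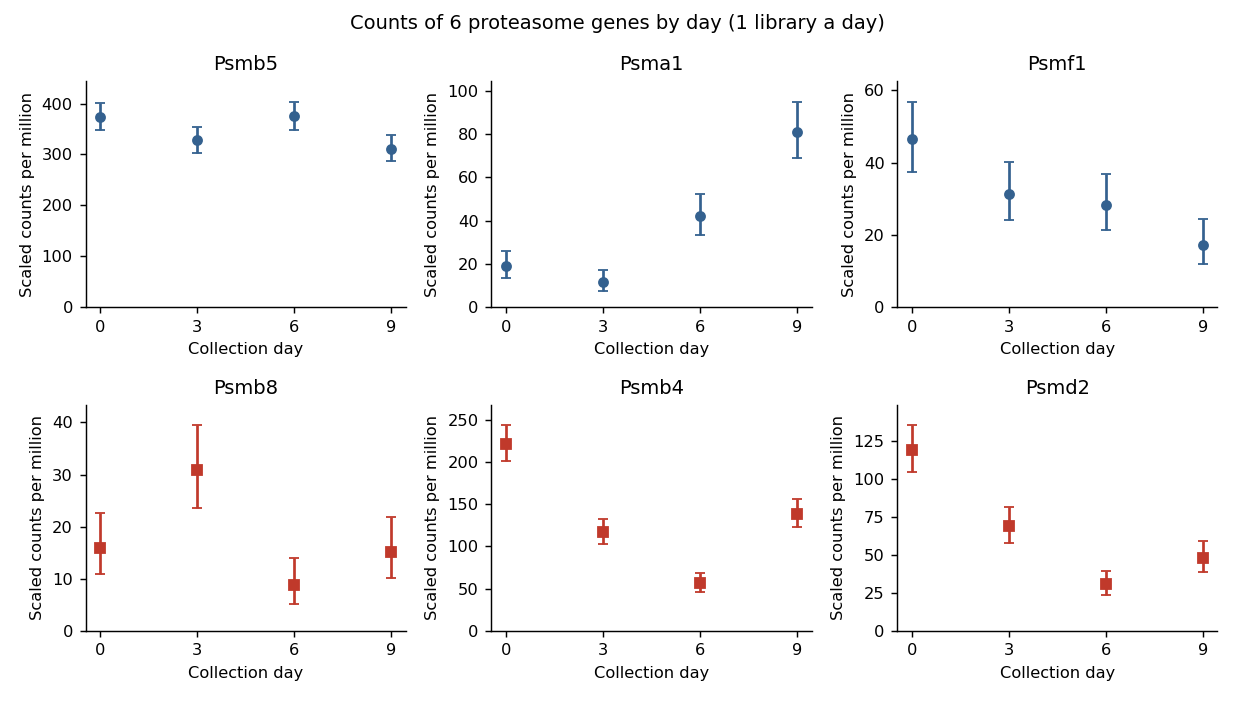
Scaled CPM are plotted against collection day for 6 proteasome genes, 1 library a day, with exact 95% intervals for counting error. Psmb5 is nearly level, Psma1 is highest on day 9, Psmf1 is lowest on day 9, Psmb8 is highest on day 3, and Psmb4 and Psmd2 are lowest on day 6; red squares are genes whose tag ends in GT or TG.

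The site 3 tag of Psmb1 ends in GT, and Psmb4 and Psmd2 are read through tags ending in TG. Tags with such ends were low on day 6 across the whole series, a pattern noticed after the values had been seen. Tags ending in CG, GG, GT or TG made up 13.8% of all tag copies on day 0, 10.9% on day 3, 7.24% on day 6 and 12.3% on day 9. Among genes outside the proteasome, 582 had their most abundant tag in this class, and their median log2 ratio to day 0 was -0.38, -1.08 and -0.22 on days 3, 6 and 9. The other 3531 genes had medians of 0.06, 0.18 and 0.05. Among them, 429 genes with a tag ending in TT had medians of 0.36, 0.33 and 0.38. For 320 genes with a tag ending in AT the median was 0.28 on each later day. On day 6 the class ending in CG, GG, GT or TG held 63.2% of the 692 genes called lower. It held 15.8% of the 5262 genes that could be called.

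Of the 39 proteasome genes, 6 have such a tag: Psmb4, Psmd2, Psmb8, Psmc3, Psmd4 and Psmg1. On day 6 the log2 ratio of the most abundant tag was below 0 for 6 of 6, with a median of -0.70, and for 14 of the other 33, with a median of 0.04. As an alternative added after these values were known, each log2 ratio of the most abundant tag was reduced by the median over the genes outside the proteasome whose most abundant tag has the same last 2 bases. On that scale Psmb4 was at -1.05 and Psmd2 at -1.07 on day 6, both still past 2-fold. On the scale of this tag, Psmc3 moved from -0.79 to 0.34, Psmd4 from -0.56 to 0.57, Psmg1 from -0.54 to 0.57 and Psmb8 from -0.61 to 0.52, so that these 4 changed sign. Psmb1 was at -0.81 over all its tags, at 0.46 through its site 1 tag alone, and at 0.18 through that tag after centring. Psmb6, whose tag ends in CT, moved from -0.87 to -0.99.

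**Figure D3:**
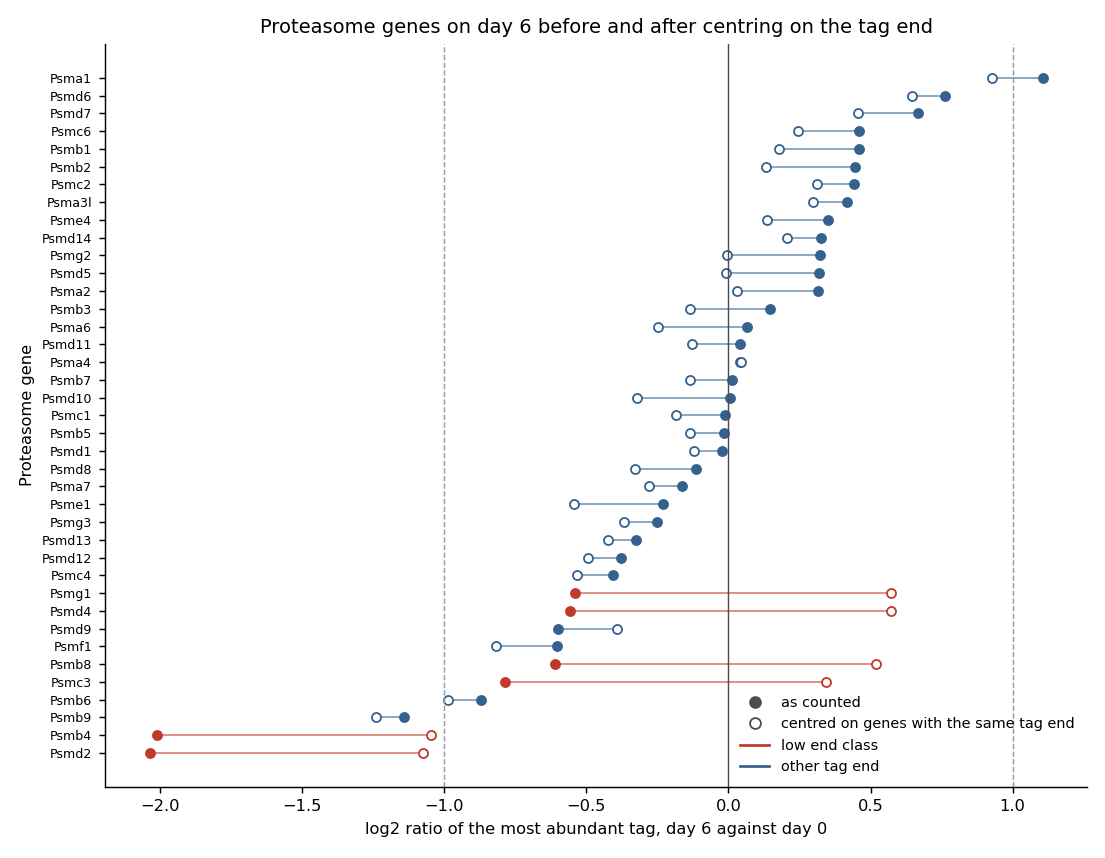
For 39 proteasome genes the log2 ratio of the most abundant tag between days 6 and 0 is plotted as counted (filled) and after subtracting the median of the genes outside the proteasome with the same last 2 bases (open). The 6 genes of the class ending in CG, GG, GT or TG (red) move right by about 1 log2 unit, 4 of them across 0, while Psmb4 and Psmd2 stay beyond the 2-fold line.

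Centring left 0, 2 and 3 genes of the earlier calls against day 0 on days 3, 6 and 9, and added 1 on day 3. Day 6 kept Psmb4 and Psmd2 and lost Psma1, which was at 0.93. Day 9 kept Psma1 at 2.00, Psmd2 at -1.04 and Psmf1 at -1.05. Day 3 gained Psmb8 at 1.60. The backgrounds on this scale were 15.6, 18.3 and 20.7%. Between days 3 and 6, centring kept Psma1 and Psmb8, lost Psmb4 (-0.35) and Psmd2 (-0.53) and added Psmd4, higher on day 6 at 1.12, with a background of 8.73%. Between days 6 and 9 it lost Psmb4 and added Psma1, higher on day 9 at 1.01, with a background of 12.2%. Summed over tags outside these ends, the constitutive beta subunits were at 0.907 times their day 0 share on day 6 (0.862 to 0.955), nearer to 1 than with all tags. On day 3 they were at 0.966 times (0.918 to 1.02), an interval that holds 1, and on day 9 at 0.933 times (0.886 to 0.983). All proteasome genes were at 0.948 times on day 6 (0.922 to 0.975).

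**Figure D4:**
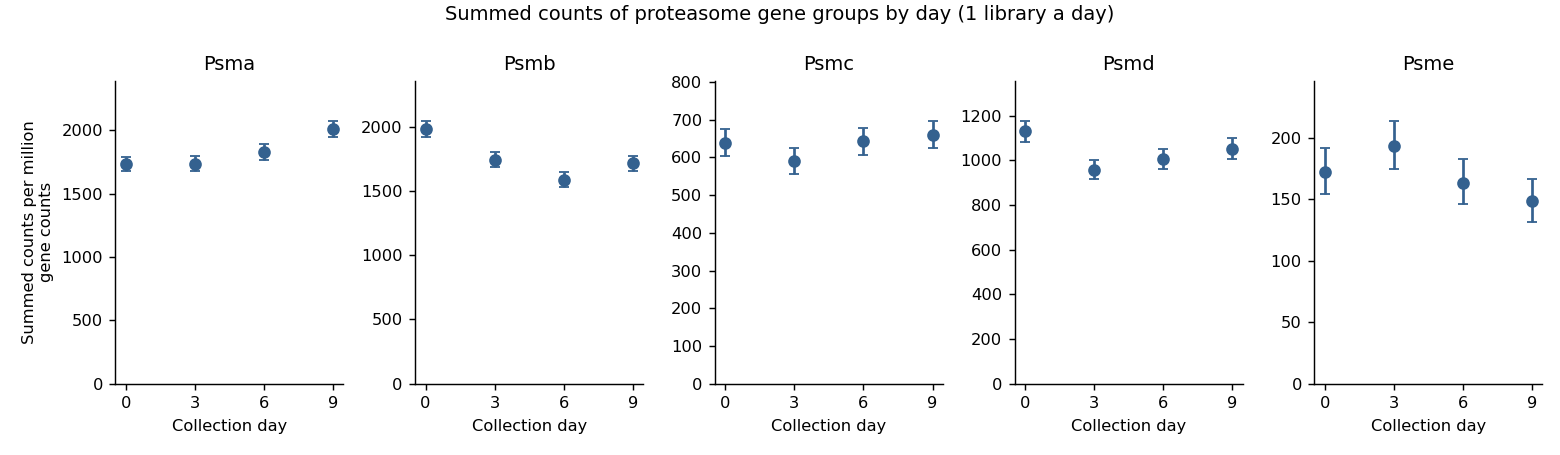
Summed CPM of gene counts are plotted by collection day for the Psma, Psmb (constitutive), Psmc, Psmd and Psme genes, 1 library a day, with exact 95% intervals. Psma is highest on day 9, Psmb is lowest on day 6 and Psmd is lowest on day 3, while the Psmc intervals overlap between all days.

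Among the immune subunits, Psmb8 was highest on day 3. This interferon-inducible replacement of Psmb5 had 32 counts on day 0, 62 on day 3, 17 on day 6 and 29 on day 9. Day 3 was 1.91-fold above day 0 (1.24 to 3.05), below the 2-fold rule, and day 6 was 3.45-fold below day 3 (2.03 to 6.43). As counted, Psmb9, the replacement of Psmb6, followed the same order at lower counts of 12, 16, 5 and 8. Its intervals against day 0 all held 1. Psmb8 made up 4.10% of the counts of Psmb8 and Psmb5 on day 0 (2.82 to 5.74), 8.59% on day 3 (6.65 to 10.9), 2.27% on day 6 (1.33 to 3.61) and 4.65% on day 9 (3.14 to 6.62). The day 3 interval did not overlap that of any other day. For Psmb9 in its pair with Psmb6 the shares were 2.21, 3.84, 1.74 and 2.23%, with intervals that overlapped. These shares were not centred on tag ends. On day 6 the medians used for centring were -1.13 for GT, the end of Psmb8, and 0.12 for CT, that of Psmb5. The tag of Psmb8 ends in GT, and the values of all later days moved with centring, from 1.18 to 1.60 on day 3, from -0.61 to 0.52 on day 6 and from 0.17 to 0.24 on day 9 on the log2 scale of that tag. After centring day 3 was still the highest, and day 6 was still lower than day 3, at -1.08. Centred Psmb9 was at 0.54, -1.24 and -0.30 against day 0 on days 3, 6 and 9. On that scale Psmb8 and Psmb9 no longer followed the same order.

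Macrophage markers and interferon response genes were also highest on day 3 when summed over each list. Over 9 macrophage markers the summed level was 252, 703, 505 and 445 scaled CPM on days 0, 3, 6 and 9. Itgam alone was at 0, on days 0, 3 and 9. Of 6 that could be called, 4 were higher on day 3, against 16.4% of all genes called in either direction. Over 7 lymphocyte and leukocyte markers it was 100.3, 113, 109 and 153, highest on day 9. The 15 interferon response genes summed to 216, 328, 258 and 235, and 2 of the 4 that could be called were higher on day 3, against 16.4% of all genes called in either direction. These were Irf7, an interferon regulatory factor, with 18, 95, 36 and 21 counts, and Ifit2, an antiviral effector, with 25, 63, 39 and 41, which no longer passed after centring. The part of these cells and genes in the Psmb8 value was not tested.

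**Figure D5:**
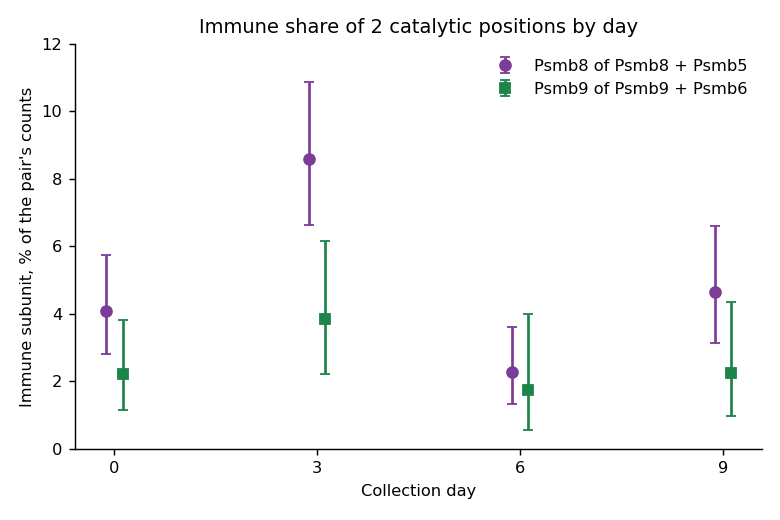
The immune subunit's percentage of the counts of its catalytic pair (Psmb8 with Psmb5, Psmb9 with Psmb6) is plotted by collection day, 1 library a day, with exact 95% intervals. The Psmb8 share stands at 8.59% on day 3 and between 2.27 and 4.65% on the other days, and the Psmb9 intervals overlap throughout. The shares are not centred on tag ends.

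The genes of class I peptide transport and loading, which use proteasome products, did not move as one. Of 8 in the list, 5 could be called, and 1, 1 and 2 passed on days 3, 6 and 9, against 16.4, 20.6 and 21.1% of all genes. Calr, a chaperone of the loading complex, was lower on days 3 and 9 (1481, 725, 782 and 612 counts). Pdia3, its partner oxidoreductase, was lower on day 6 (500, 324, 166 and 302 counts) and Erap1, which trims peptides, was higher on day 9 (47, 86, 78 and 124 counts). Tap1, a subunit of the peptide transporter encoded beside Psmb8 and Psmb9, had 22, 46, 47 and 46 counts, under the minimum of 50 for a call.

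The ATPase subunits unfold substrates and open the gate, and their sum stayed within 0.925 and 1.03 times the day 0 share on all later days. Psmc2 had 210, 247, 271 and 306 counts and was 1.53-fold above day 0 on day 9 (1.28 to 1.83). Psmc6 had 343, 306, 449 and 399 counts, 1.35-fold above on day 6 (1.17 to 1.56). Psmc4 was lower than day 0 throughout, at 258, 181, 189 and 188 counts, with its largest difference of 1.43-fold on day 3 (1.18 to 1.74). Psmc1 ran from 267 and 265 to 248 and 209. Psmc3, at 188, 163, 105 and 186 counts, was 1.74-fold below day 0 on day 6 (1.36 to 2.23), the value that changed sign after centring. Psmc5, at 0, 0, 2 and 2 counts, could not be compared.

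In the regulatory particle, the largest difference was that of Psmd2. It encodes one of the large base subunits, where shuttle factors and the deubiquitinase Usp14 dock. It had 239 counts on day 0, 139 on day 3, 60 on day 6 and 92 on day 9, so that every later library was below day 0. The ratios were 1.73-fold (1.40 to 2.15), 3.85-fold (2.90 to 5.22) and 2.47-fold lower (1.94 to 3.18). After centring, days 6 and 9 were at -1.07 and -1.04 on the log2 scale. Its structural counterpart Psmd1 was flat, as given above.

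Of the subunits that receive and deubiquitinate substrates, Psmd4 and Psmd14 had their highest counts on day 9. Psmd4, a ubiquitin receptor, had 283, 152, 194 and 312 counts, 1.87-fold below day 0 on day 3 (1.53 to 2.29) and 1.16-fold above on day 9 (0.982 to 1.36). Its tag ends in GT, and after centring its log2 ratios to day 0 were -0.54, 0.57 and 0.23, with day 6 the highest. Psmd14, the metalloprotease that removes ubiquitin chains, had 94, 80, 115 and 161 counts, 1.79-fold above day 0 on day 9 (1.39 to 2.34). Psmd7, which pairs with Psmd14 in the lid, had 301, 274, 358 and 293 counts, and its day 6 value was 1.22-fold above day 0 (1.05 to 1.43).

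The remaining lid subunits divided. Psmd6 was above day 0 on all 3 later days, with 109, 170, 178 and 166 counts and ratios of 1.55-fold (1.21 to 1.99), 1.68-fold (1.32 to 2.15) and 1.60-fold (1.25 to 2.05). Psmd12 was lowest on day 3, at 76, 41, 56 and 86 counts, 1.85-fold below day 0 there (1.26 to 2.79). Psmd8 had 553, 486, 479 and 396 counts, 1.33-fold below day 0 on day 9 (1.17 to 1.52). Psmd13 had 120, 102, 102 and 89 counts with intervals that held 1. Psmd11 and Psmd3 were low, at 20, 16, 20 and 24 counts and at 8, 4, 8 and 10.

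Psmd5, Psmd9 and Psmd10 are chaperones that assemble the base and are absent from the finished particle. Psmd5 was highest on day 3, at 47, 85, 57 and 75 counts, 1.79-fold above day 0 (1.25 to 2.63). Its tag ends in TT, and after centring Psmd5 was 1.39-fold above day 0 on day 3. Psmd9 was lowest on the same day, at 86, 45, 55 and 64 counts, 1.91-fold below (1.32 to 2.82). Psmd10, also known as gankyrin, was level at 62, 66, 61 and 67. These 3 chaperones of one assembly step therefore had different orders over the days. The Psmd genes as a group summed to 1131, 958, 1005 and 1053 CPM of gene counts, and the day 3 share was 0.847 times that of day 0 (0.797 to 0.901).

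Among the alternative regulators, Psmf1 was the one called. It encodes PI31, which binds the core, inhibits it in vitro and serves in its transport. Its counts were 93 on day 0, 63 on day 3, 55 on day 6 and 33 on day 9. The day 9 library was the lowest, 2.66-fold below day 0 (1.79 to 4.12), and days 3 and 6 were 1.48-fold (1.07 to 2.08) and 1.64-fold lower (1.16 to 2.34). Psme1, the alpha subunit of an interferon-inducible activator, had 261, 269, 210 and 191 counts, 1.03-fold above day 0 on day 3 (0.862 to 1.22) and 1.30-fold below on day 9 (1.08 to 1.58). Psme4, an activator with roles in DNA repair and histone degradation, had 81, 112, 112 and 99 counts, 1.42-fold above day 0 on day 6 (1.06 to 1.92).

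The Psmg genes encode chaperones that assemble the core, Psmg1 with Psmg2 and Psmg3 with Psmg4. Psmg1 had 105, 61, 73 and 59 counts and was 1.69-fold below day 0 on day 9 (1.22 to 2.37). Psmg2 (37, 39, 45 and 40 counts) and Psmg3 (32, 32, 31 and 25 counts) had intervals against day 0 that held 1. Psmg4 had 8, 7, 3 and 7 counts. Psmg1 is one of the genes with a low tag end, and on day 9 it was at -0.39 on the log2 scale after centring.

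Of 9 other proteasome-associated genes measured, 8 could be called on days 3 and 6, and all 9 on day 9. Of these, 0 were called on day 3, 2 were lower on day 6 and 2 were higher on day 9. The shares over all genes were 16.4, 20.6 and 21.1%, and 1 of the 4 calls, that of Zfand5, passed after centring on the tag end. Zfand5, a ubiquitin-binding protein that stimulates the proteasome, had 175, 339, 303 and 474 counts, 2.84-fold above day 0 on day 9 (2.39 to 3.40). Zfand2a, a stress-induced relative, had 37, 34, 45 and 71 counts, 2.00-fold above (1.34 to 3.08). Usp14, a deubiquitinase that docks on Psmd2, had 225, 134, 75 and 230 counts, 2.90-fold lower on day 6 (2.23 to 3.84). Akirin2, which brings proteasomes into the nucleus, had 103, 83, 43 and 111 counts, 2.31-fold lower on day 6 (1.62 to 3.40). Usp14 and Akirin2 have low tag ends. Pomp, the maturation factor of the core, was level at 648, 669, 553 and 664 counts, and Shfm1, a small lid subunit, had 1107, 1436, 1900 and 1566, 1.77-fold above day 0 on day 6 (1.64 to 1.90). The row LOC500610, described as the activator subunit PSME3, had 222, 184, 233 and 145 counts.

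In ubiquitin supply, 1 gene was called in each direction on days 6 and 9, of 6 that could be called, against 20.6 and 21.1% of all genes in either direction. Ubb, a polyubiquitin gene, had 321, 191, 1529 and 1663 counts, 4.90-fold above day 0 on day 6 (4.34 to 5.55) and 5.43-fold on day 9 (4.82 to 6.15). Ube2l3, a ubiquitin-conjugating enzyme, had 113, 43, 36 and 47 counts and was called lower on all 3 later days. In substrate delivery, Bag6, a chaperone of misfolded proteins, was lower on days 3 and 9 (377, 143, 206 and 179 counts). It was the only gene called against day 0, without centring, among 10 that could be called. The shares of all genes called on days 3, 6 and 9 were 16.4, 20.6 and 21.1%.

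Of 5 factors controlling proteasome genes that could be called on day 3, 1 passed against day 0, compared with 16.4% of all genes. It was Maff, a small partner of NRF1 and NRF2, which was lower there (90, 26, 53 and 75 counts). None passed on days 6 and 9. Between days 3 and 6, Maff was higher and Keap1 (42, 55, 26 and 48 counts) lower on day 6, with a background of 9.63%. Neither of these calls between days 3 and 6 passed after centring. Nfe2l2, which encodes NRF2, had 268, 250, 254 and 146 counts, 1.75-fold below day 0 on day 9 (1.42 to 2.15). Nfe2l1, which encodes NRF1, the factor that raises proteasome genes when the proteasome is inhibited, had only 6, 12, 5 and 8 counts. A core of the site these factors bind, TGACNNNGC on either strand, was found in the promoters of 7 of 39 proteasome genes, or 17.9%, and in 12.1% of 33469 promoters. Promoters ran from 250 bases before to 50 after the gene start in RefSeq for GRCr8. The 7 were Psmb2, Psmb5, Psmb6, Psmd1, Psmd3, Psmd9 and Psme4, whose counts followed different orders over the days.

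Complexes of similar build were compared by the same rule, which 16.4, 20.6 and 21.1% of all genes passed against day 0 on days 3, 6 and 9. The COP9 signalosome, related to the lid, had 0 of 5 genes called against day 0 on each day, with median log2 ratios of -0.39, -0.07 and -0.36 over 7 genes. The CCT chaperonin had 1 of 7 called on each day, Cct3, at 381, 177, 96 and 121 counts, and its medians were -0.26, -0.54 and -0.55. No difference between these complexes and the proteasome was tested. After centring on the tag end, Cct3 on days 3 and 6, Calr on day 3 and Bag6 on day 9 no longer passed. Centring also added calls. On day 3 it added 1 higher among the proteasome-associated genes and 1 higher among the peptide loading genes. On day 6 it added 1 lower in substrate delivery. Ubiquitin ligases of muscle wasting had 0 genes with enough counts for a call.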

How the data were processed

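Digital gene expression tags were measured in 4 libraries, 1 for each day. Per the file headers, the authors summed tag copies into whole-number counts for each gene and deposited CPM values under a heading of TPM, scaled to all tags seen at least 2 times. The counts were used, and the deposited CPM only as an alternative. Tag sequences were read from the deposited tables. The assembly was Rnor_6.0 per the submitters' processing notes. No aligner or annotation version is given in the sources used here. Tags in no gene made up 39.4 to 43.1% of copies. Promoters came from RefSeq (GRCr8), another build, so no coordinates are given; 39 of 44 genes had one.

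Counts were scaled by TMM (edgeR 4.0.16), with a prior count of 0.5. Exact 95% Clopper-Pearson intervals cover counting error only, and tag copies without molecular identifiers are not independent molecules. With 1 library a day there is no replicate check and no p-value. Medians are over genes with a mean of at least 10 counts. Tag-end medians used genes with a mean of at least 50 copies. The ratios, intervals, call rule and centring on tag ends were tested on simulated counts. The TMM and DESeq2 scaling, summed shares, pair shares and promoter search were not.

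The genes and lists were chosen with earlier results of these data known. Named with their counts were the catalytic and immune Psmb genes, all Psme, Psmf and Psmg genes, every called gene and, in Psma to Psmd, the 2 highest and 2 lowest ratios on each day. Other genes of Psma to Psmd, and genes of other lists beyond the 2 furthest from day 0, were named after their values were seen. Alternatives changed the scaling (DESeq2 1.42.0 size factors among them), count minimum, fold, prior count and tags.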

Additional observations from a re-analysis of the deposited data

How the results depend on the processing

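No paired analysis was possible because each day is 1 library, and for the same reason no library could be left out. The median log2 ratio of the proteasome genes to day 0 ran from -0.15 to -0.03 on day 3, from -0.13 to 0.04 on day 6 and from -0.06 to 0.05 on day 9 over the alternatives, so that its sign held on day 3 only. The count of called genes stayed within 1.5 times under 46 of 55 alternatives. With a 1.5-fold threshold, 9, 9 and 10 genes were called against day 0 on days 3, 6 and 9, and 7 between days 6 and 9. With a minimum of 200 counts, 1 was called on day 9 (Psmd2) and 1 between days 3 and 6 (Psmb4). On day 3, 1 gene was called with totals without the 20 most abundant genes, with the most abundant tag alone and with that tag centred on its last 2 bases, a choice made after seeing the data.

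Of called single genes, 111 of 121 values kept their direction and call, and 10 kept only the direction. This tally includes settings that were bound to keep every call. A minimum of 10 counts, no minimum and the 1.5-fold threshold only loosen the rule, and they leave the log2 ratio as it was. Psma1 on day 6, for example, stayed at 1.14 under each. These settings are therefore no check on the called genes. The lost calls came from the minimum of 200 counts, or from centring: Psma1 on day 6, and Psmb4 and Psmd2 between adjacent days.

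Summed shares against day 0 depended on single genes. Without the most abundant member the ratios on days 3, 6 and 9 were 1.18, 1.18 and 1.27 for Psma and 1.39, 1.39 and 1.24 for Psme. They were 0.756 (day 6) and 0.822 (day 9) for Psmb, 0.890 for Psmc (day 6), 0.998 for Psmd (day 9), 1.02 (day 3) and 0.949 (day 9) for Psmg, and 0.947 for all genes (day 3). Relative to all tags, the day 3 ratios were 1.07 for Psma, 0.935 for Psmb, 0.902 for Psmd and 0.981 for all genes, and the day 9 ratio for all genes was 1.01. Over tags outside the 4 low ends, also chosen after seeing the data, they were 0.985 for Psma (day 6), 0.966, 0.907 and 0.933 for Psmb (days 3, 6 and 9), 1.03 (day 3) and 0.529 (day 9) for the immune subunits, 0.903 (day 3) and 0.947 (day 6) for Psmd, 0.968 for Psmg (day 3), and 0.951, 0.948 and 1.01 for all genes. The cause was not tested. Over tags outside the low ends, the immune sums left out the main tag of Psmb8, which ends in GT. They rested on 16 counts on day 3 and 8 on day 9, against 15 on day 0. Their intervals were 0.478 to 2.24 on day 3 and 0.194 to 1.33 on day 9, and both held 1. With under 50 counts in all libraries, 9 genes are limited by depth.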
